A study of Mus musculus with 4 samples.

Results

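Mural cells wrap the walls of blood vessels. The 10 genes described here mark their main kinds: 5 encode contractile proteins of smooth muscle cells (Acta2, Myh11, Tagln, Cnn1 and Myl9), and 5 are used as markers of pericytes, the mural cells of capillaries (Rgs5, Cspg4, Kcnj8, Abcc9 and Mcam). They were taken by gene name from the 47643 genes of the authors' table, where each name stood on 1 row. Smooth muscle cells contract by sliding myosin along actin filaments, which sets the width of arteries and veins. Pericytes share a basement membrane with the endothelium, make less of the contractile apparatus, and are recognised by a set of surface, channel and signalling genes. In bone, mural cells line vessels of the periosteum and marrow, and some pericyte markers are shared with skeletal progenitors.

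RNA was profiled in cells of the periosteum, the membrane that covers bone, released from the shafts of mouse femora. All animals carried 1 Sox9CreErt2 allele, which makes a tamoxifen-dependent Cre recombinase from the Sox9 locus, and 1 Td-Tomato reporter allele that Cre switches on. All received 3 injections of tamoxifen (100 µL at 20 mg/mL), 48 h apart, and 2 weeks later their unfractured femora were collected. The fluorophore therefore marks cells in which Sox9 was active when tamoxifen was given, and cells born from them. No source used here names the inbred background, the age or the sex. The compared groups are TdTomato-positive cells (2 libraries) and TdTomato-negative cells (2 libraries), sorted in 2 collections from 18 femora of 9 pooled mice. A library therefore pools animals, and nothing shows that the 2 libraries of a group came from separate mice. No p-value here can measure more than the spread between libraries, which may be technical. The negative cells are every other cell the digestion released, not a single cell type.

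The authors' table gives group means rather than library columns, but its columns fix the 4 library values of a gene, which were solved from them. Libraries are named here by group and implied depth: P32 and P42 are TdTomato-positive with 32.0 and 41.6 M reads, and N17 and N74 are TdTomato-negative with 17.0 and 74.0 M reads. Values are reads per kb of genomic span, introns included, per M reads of depth (RPKM). Of the 10 genes, 9 had a single possible assignment of values to libraries. Acta2 did not: its positive values were not whole reads under either assignment, and both are given. All 10 genes had at least 10 reads in at least 2 libraries. In bulk RNA, fewer cells of a type and less RNA per cell cannot be told apart. Sox9 itself was at 16.4 and 4.51 RPKM in P32 and P42, against 3.32 and 0.0244 RPKM in N17 and N74.

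N74 stood apart from the other 3. It held the lowest value of the 4 libraries for 9 of the 10 genes, Cnn1 being the exception, and 0 reads of Cspg4 and Abcc9. The other negative library, N17, lay within or above the range of the positive libraries for 6 genes with resolved values, and within the range of the Acta2 values under either assignment. Most of what follows turns on this difference within the negative group.

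Acta2 (ENSMUSG00000035783.8, chromosome 19, 34241090 to 34255337, mm10) encodes alpha smooth muscle actin, the thin filament protein of smooth muscle that myofibroblasts also make. It was at 7.88 and 2.61 RPKM in P32 and P42, or at 1.98 and 10.3 RPKM under the other assignment. In N17 and N74 it was at 4.38 and 0.762 RPKM. Under both assignments 1 positive library lay above and 1 below the higher negative one, so the groups overlapped. Its actin sequence is nearly the same as that of other muscle actins, and Acta1 of skeletal muscle lay between 61.2 and 186.3 RPKM in positive and between 0.0892 and 882.9 RPKM in negative cells over both assignments. No source used here says how reads that match both genes were counted, so the level of Acta2 is uncertain.

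Tagln (ENSMUSG00000032085.4, chromosome 9, 45929628 to 45936059) encodes transgelin, an actin-binding protein of smooth muscle. It was at 8.21 and 2.24 RPKM in P32 and P42, against 3.03 and 0.174 RPKM in N17 and N74. The lower positive library lay below the higher negative one, so these groups overlapped too. The end of Tagln overlaps Pcsk7 on the opposite strand by a short stretch, and the sources used here do not say whether the counting used strand.

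Myl9 (ENSMUSG00000067818.6, chromosome 2, 156775420 to 156781659), a regulatory light chain of smooth muscle and non-muscle myosin, was the contractile gene with the clearest difference. It was at 10.9 and 15.5 RPKM in P32 and P42, against 4.03 and 0.0390 RPKM in N17 and N74. The means were 13.2 ± 3.30 RPKM in positive cells and 2.04 ± 2.82 RPKM in negative cells (SD, n = 2 each). P32 and P42 both lay above N17 and N74, and the difference between the 2 negative libraries was itself 103-fold.

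Myh11 (ENSMUSG00000018830.8, chromosome 16, 14194527 to 14291409) encodes the smooth muscle myosin heavy chain, the marker most restricted to smooth muscle. It had 97 and 338 reads in P32 and P42, or 0.0313 and 0.0839 RPKM. In N17 and N74 it had 22 and 10 reads, or 0.0134 and 0.0014 RPKM. P32 and P42 both lay above N17 and N74, at levels below the offset of 0.1 RPKM that the authors' values contain.

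Cnn1 (ENSMUSG00000001349.4, chromosome 9, 22099281 to 22109631) encodes calponin, an actin-binding protein that restrains myosin in differentiated smooth muscle. It was the contractile gene with the lower mean in positive cells. It had 29 and 0 reads in P32 and P42, against 33 and 55 reads in N17 and N74. These are 0.0877 RPKM and, for 0 reads, at most 0.00697 RPKM (3 reads) in positive cells, and 0.188 and 0.0718 RPKM in negative cells. The higher positive library lay between the negative ones.

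**Figure D1:**
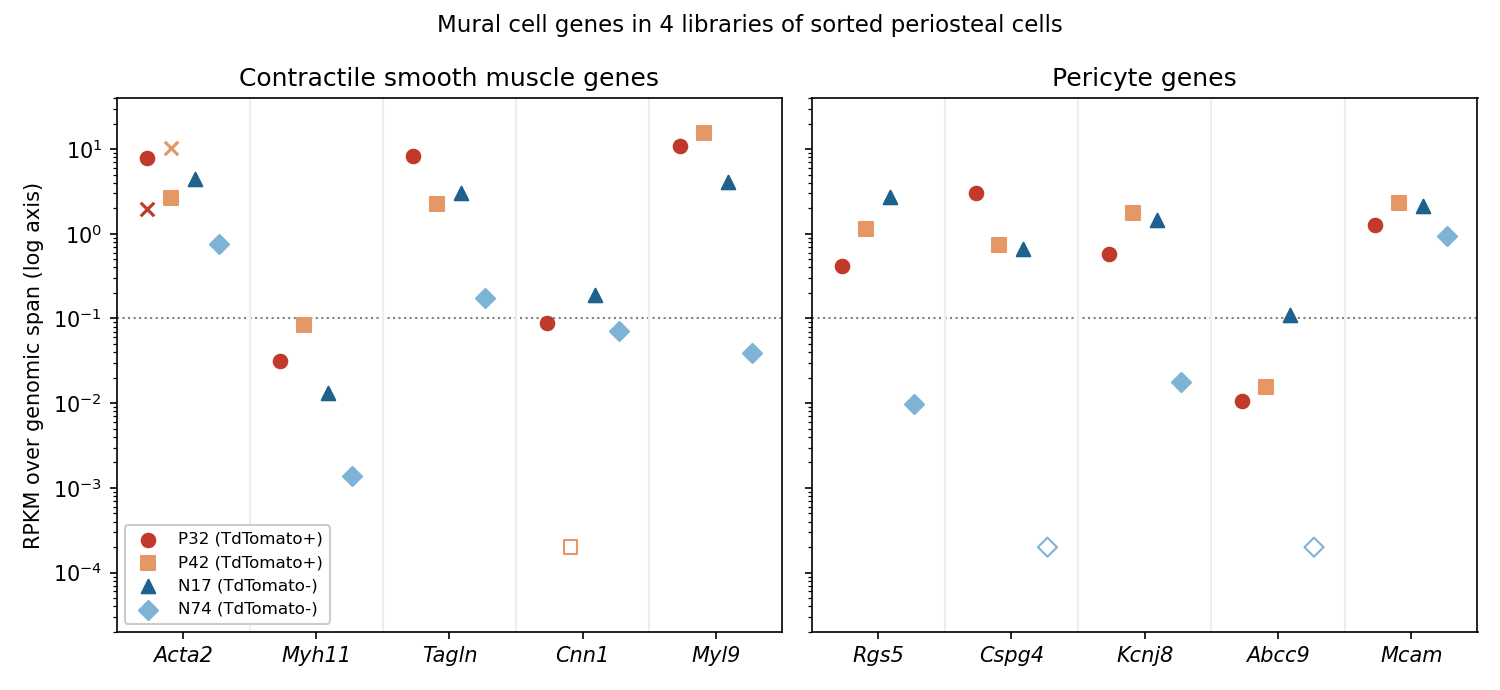
RPKM over the genomic span of each gene (log axis) in the 2 TdTomato-positive and the 2 TdTomato-negative libraries, named by group and depth; crosses give the other assignment of Acta2, open symbols mark 0 reads (drawn at an arbitrary low position), and the dotted line is the offset of 0.1 RPKM. N74 is lowest for each gene but Cnn1, and both positive libraries lie above both negative ones for Myl9, Myh11 and Cspg4.

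The contractile genes thus split by abundance, and the split holds when reads are set against exon length instead of genomic span. The span of Myh11 is 96.9 kb, of which 6.61 kb is exon in GENCODE M21, while Myl9 has 1.13 kb of exon in 6.24 kb. In reads per kb of exon per M reads, Myl9 was at 60.1 and 85.9 in P32 and P42 and at 22.3 and 0.216 in N17 and N74. On the same scale Tagln was at 33.1 and 9.01 in positive cells and at 12.2 and 0.703 in negative cells. Acta2 was at 55.2 and 18.3, or 13.9 and 72.0 under the other assignment, in positive cells, and at 30.7 and 5.33 in negative cells. Myh11 reached only 0.459 and 1.23 in positive cells and 0.196 and 0.0204 in negative cells. Cnn1 was at 0.360 and 0 against 0.771 and 0.295. In both positive libraries and in N17, Acta2, Tagln and Myl9 were therefore each above Myh11 and Cnn1 on this scale. The same order held for Acta2 and Tagln, but not for Myl9, in N74, where Cnn1 stood above Myl9. No source used here says whether intronic reads were counted, and the exon scale assigns them all to exons.

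**Figure D2:**
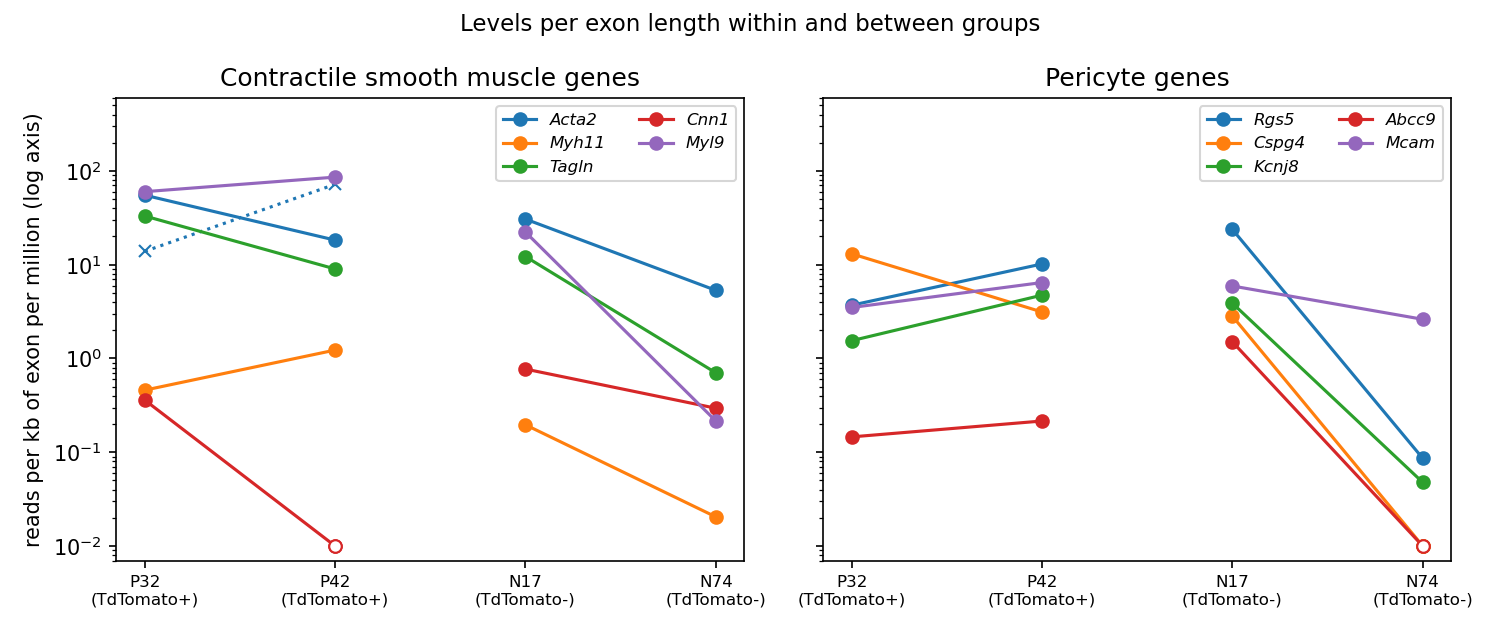
Reads per kb of exon per M reads (log axis) for each gene in the 4 libraries, named by group and depth; lines join the 2 libraries of a group only to follow a gene, the dotted line is the other assignment of Acta2, and open circles mark 0 reads (drawn at an arbitrary low position). Acta2, Tagln and Myl9 lie above Myh11 and Cnn1 in 3 libraries, and among the pericyte genes Cspg4 is the one that is lower in P42 than in P32.

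Serum response factor drives many contractile genes through the CArG box, a palindromic motif of 10 letters. It was searched for in the RefSeq promoters (GRCm38.p6), in the 200 bases from 250 to 51 bases before the start, both strands being covered because the motif is its own reverse complement. Promoters were matched for 8 of the 10 members. The contractile genes Tagln and Myh11 had no matched promoter and were not searched, while every pericyte gene was. An exact box was in 1 of them, Myl9, and in 1.16% of all 32851 promoter windows. A box with at most 1 letter off was in 3 of the 8 (Myl9, Acta2 and Cspg4) and in 15.2% of all windows. The Acta2 match, CCCTATATGG, lies 84 to 75 bases before the start. The windows of Myl9 and of Rgs5, which had the largest deposited log difference among the contractile genes and the lowest ratio of deposited levels among the pericyte genes, are shown with matches in capitals. In Myl9 the first capitals are the exact box and the second have 1 letter off, and Rgs5 has no match. The Myl9 window is chr2:156775214-156775413 and the Rgs5 window is chr1:169655251-169655450, both on the plus strand.
Myl9: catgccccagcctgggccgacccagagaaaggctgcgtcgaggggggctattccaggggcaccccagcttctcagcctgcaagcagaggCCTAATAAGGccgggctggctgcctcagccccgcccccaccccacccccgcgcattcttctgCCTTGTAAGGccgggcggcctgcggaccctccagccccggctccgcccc
Rgs5: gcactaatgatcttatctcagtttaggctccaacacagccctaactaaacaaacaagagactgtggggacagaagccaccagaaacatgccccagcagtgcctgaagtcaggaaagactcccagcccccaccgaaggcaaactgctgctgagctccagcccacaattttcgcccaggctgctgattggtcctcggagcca

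Rgs5 (ENSMUSG00000026678.10, chromosome 1, 169655501 to 169695814), a regulator of G protein signalling and a leading pericyte marker, was highest in a negative library. It was at 0.417 and 1.15 RPKM in P32 and P42, against 2.68 and 0.00972 RPKM in N17 and N74. These values rest on 537 and 1927 reads in positive cells and on 1836 and 29 reads in negative cells. The means were 0.783 ± 0.518 RPKM in positive and 1.35 ± 1.89 RPKM in negative cells (SD, n = 2 each). Both positive libraries lay between the negative ones, which differed 276-fold from each other.

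Kcnj8 and Abcc9 encode the pore and the regulatory subunit of the ATP-sensitive potassium channel of mural cells. They are neighbours on chromosome 6 (Kcnj8, ENSMUSG00000030247.9, 142564837 to 142571615, and Abcc9, ENSMUSG00000030249.15, 142587862 to 142702316), 16.2 kb apart. Kcnj8 was at 0.582 and 1.78 RPKM in P32 and P42, against 1.46 and 0.0179 RPKM in N17 and N74. Abcc9 was at 0.0107 and 0.0158 RPKM in positive cells, from 39 and 75 reads. In negative cells it had 214 reads, or 0.110 RPKM, in N17 and 0 reads, at most 0.000354 RPKM, in N74. For both genes the groups overlapped. N17 held 6.99 times the Abcc9 of P42 but 0.820 times its Kcnj8. An antisense gene within Abcc9, 5330439B14Rik, had 1 read in all libraries together.

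Cspg4 (ENSMUSG00000032911.5, chromosome 9, 56865104 to 56899871) encodes the proteoglycan NG2, a surface marker of pericytes that immature cartilage and bone cells also carry. It departed from the other pericyte genes. It was at 3.05 and 0.731 RPKM in P32 and P42, against 0.661 and 0 RPKM in N17 and N74. The reads were 3392 and 1058 in positive cells and 390 and 0 in negative cells, the last allowing at most 0.00117 RPKM. P32 and P42 both lay above N17 and N74, but the lower positive value was close to the higher negative one. Their 95% Poisson intervals, which cover counting error only, ran from 0.688 to 0.777 RPKM and from 0.597 to 0.730 RPKM. In the order of its 4 values Cspg4 was like Sox9, with P32 first and N74 last. Some mural genes outside these 10, Ndufa4l2, Gja4 and Tpm2 among them, had the same order, and others did not.

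Mcam (ENSMUSG00000032135.14, chromosome 9, 44134469 to 44142728) encodes CD146, an adhesion molecule of pericytes, smooth muscle and endothelium. Its 4 values lay closest together. It was at 1.27 and 2.34 RPKM in P32 and P42, against 2.15 and 0.947 RPKM in N17 and N74. The groups overlapped, and the means were 1.80 ± 0.758 RPKM in positive and 1.55 ± 0.848 RPKM in negative cells (SD, n = 2 each). Per kb of exon and M reads, Rgs5 was at 3.70 and 10.2 in P32 and P42 and at 23.8 and 0.0862 in N17 and N74, while Mcam was at 3.50 and 6.46 and at 5.93 and 2.62. With 579 reads, Mcam was the pericyte gene with the highest RPKM in N74.

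The 2 positive libraries differed from each other in most of these genes. Of the 5 pericyte genes 4 were higher in P42, and of the 4 resolved contractile genes 2 were. Rgs5, Kcnj8, Abcc9, Mcam, Myh11 and Myl9 were higher in P42, and Cspg4, Tagln and Cnn1 in P32. The ratio of the higher to the lower positive value ran from 1.43 for Myl9 to 4.17 for Cspg4, leaving out Cnn1, which had 0 reads in 1 library, and Acta2.

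No member was called different between the groups. In the authors' deposited table, 0 of the 10 genes had an FDR under 0.05, against 0.0063% of all genes, and each of the 10 was listed at an FDR of 1.00. Below an unadjusted 0.05 the authors' deposited table holds 1 of the 10, higher in positive cells, against 0.894% of all genes (0.598% higher and 0.296% lower). That gene is Myl9, at 0.00485. Cspg4 at 0.0771 and Tagln at 0.125 followed among the unadjusted values of the authors' deposited table, and the others lay between 0.341 for Kcnj8 and 0.884 for Mcam. The authors' p-values followed the log difference more than the spread of a gene between libraries. Rgs5 and Myh11 had log2 differences of 0.50 and 0.49, with pooled SDs of 2.42 and 0.26 on log2(RPKM + 0.1). Their deposited p-values were 0.725 and 0.731. On this scale the SD of Myl9 was 2.46. Limma on log2(RPKM + 1), fitted to the 6863 genes with at least 1 RPKM in at least 2 libraries, held 6 of the 10 and called 0 of them, against 0.0% of the genes fitted. Myh11, Cnn1, Cspg4 and Abcc9 fell below this filter and were not fitted. Limma gave Myl9 a log2 fold of 2.62 ± 0.82 (SE), with an unadjusted p of 0.0257 and an adjusted p of 0.463. No other fitted member had an unadjusted p under 0.05. The share of fitted genes under that unadjusted threshold was 10.6%, and 6.86% were under it and higher in positive cells. P32 and P42 both lay above N17 and N74 for 3 of the 10 genes (Myl9, Myh11 and Cspg4), against 16.0% of the 17200 genes with at least 10 reads in 2 libraries. Both lay below for 0 of the 10, against 13.6%. N17 is the higher negative library for each of these 3 genes, and without N74 the log2 folds of mean RPKM plus the offset were 1.69 for Myl9, 1.39 for Cspg4 and 0.48 for Myh11. An exact two-sided permutation test of 2 libraries against 2 cannot go below p = 0.333.

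The direction of the pericyte genes depended on how the libraries were averaged. The authors' deposited levels divide each library by its depth a second time, so that N17 weighs 4.36 times as much as N74 in the group mean. A gene with no reads at all then has a ratio of 0.764, or -0.39 in log2. The table's log difference, which averages log values, is the quantity that the authors' p belongs to. In the authors' deposited table the log2 ratio of levels of Rgs5 was -1.84 and its log2 difference 0.50. Kcnj8 had a log2 ratio of -0.49 and a log2 difference of 1.36 in the authors' deposited table, and Mcam -0.53 and 0.21. The signs were opposite for these 3 of the 10 genes, against 17.0% of the genes with at least 10 reads in 2 libraries. With every library weighted equally, the log2 ratio of mean RPKM was -0.78 for Rgs5, 0.68 for Kcnj8 and 0.22 for Mcam. Abcc9 was negative by all 3 measures (ratio -1.14, log difference -0.40, mean RPKM -2.06) and Cspg4 positive (1.36, 2.51 and 2.52).

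Among the contractile genes the 3 measures had the same sign for each gene. In the authors' deposited table the log2 ratio of levels and the log2 difference were 0.19 and 1.20 for Acta2, 0.75 and 2.21 for Tagln and 1.55 and 4.07 for Myl9. They were 0.08 and 0.49 for Myh11, whose deposited values the offset holds near 0, and -1.22 and -0.74 for Cnn1 in the authors' deposited table. As ratios of mean RPKM, positive cells stood 2.04-fold above negative cells for Acta2, 3.26-fold for Tagln, 6.49-fold for Myl9 and 7.80-fold for Myh11, and negative cells stood 2.96-fold above positive cells for Cnn1. None of these differences passed the test.

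**Figure D3:**
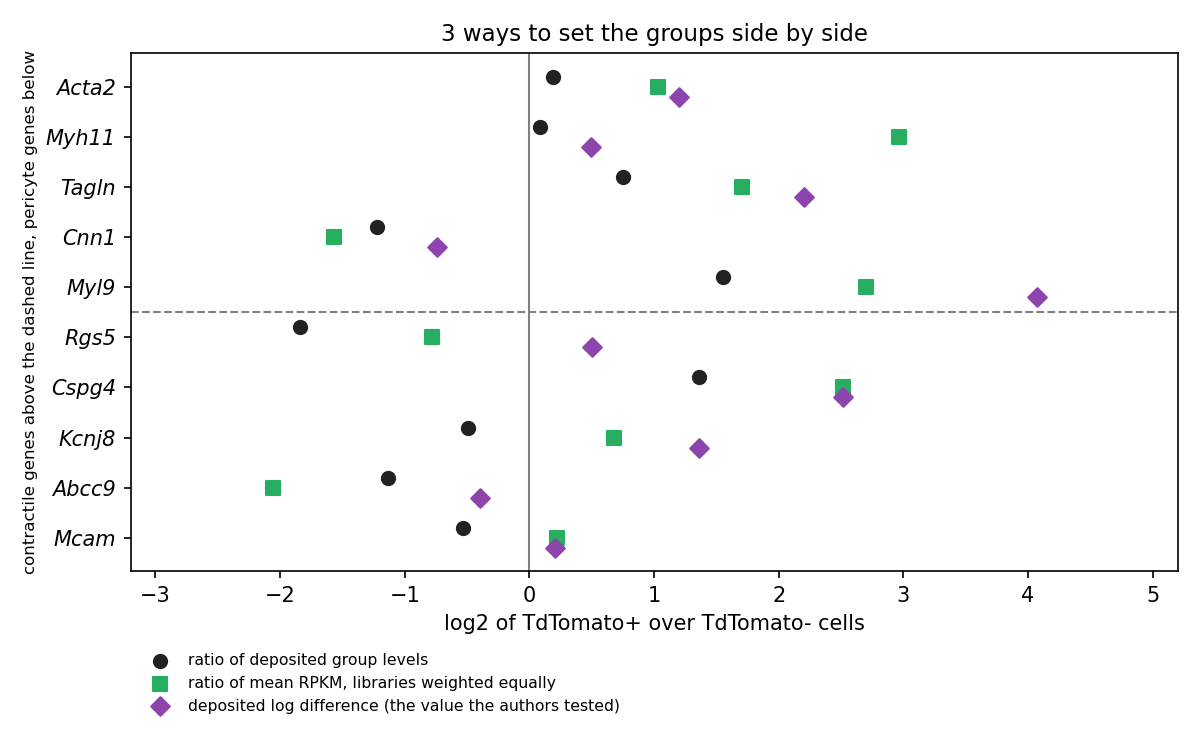
Log2 of TdTomato-positive over TdTomato-negative cells for each gene, contractile genes above and pericyte genes below the dashed line: the ratio of the deposited group levels, the ratio of mean RPKM, and the deposited log difference. Rgs5, Kcnj8 and Mcam change side of 0 between the measures, while Cnn1 and Abcc9 stay below it and the other 5 genes above it.

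Setting the lists against each other, contractile genes had the higher median. The median log2 ratio of levels was 0.19 over the 5 contractile and -0.53 over the 5 pericyte genes, a difference of 0.73, beside a median of -0.26 over the 17200 genes. By this ratio 4 of 5 contractile and 1 of 5 pericyte genes were higher in positive cells, against 35.9% of the 17200. By the log difference the medians were 1.20 and 0.50, beside 0.02 over the 17200, and 4 of 5 genes in each list were higher, against 51.0%. The contrast did not hold without single libraries. On equally weighted RPKM plus the offset, the difference of medians was 0.79 with all libraries and 0.76 leaving out N74. It was -0.11 leaving out P32, -0.37 leaving out N17 and 1.88 leaving out P42.

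The same contrast can be read within each library. Contractile genes summed to 27.1 and 20.5 RPKM in P32 and P42, or 21.2 and 28.1 RPKM with the other assignment of Acta2. In N17 and N74 they summed to 11.6 and 1.05 RPKM. Pericyte genes summed to 5.33 and 6.01 RPKM in the positive libraries and to 7.06 and 0.975 RPKM in the negative ones. The pericyte sum of N17 was thus above both positive ones, while its contractile sum was below both. The pericyte part of this rests on Rgs5 alone, at 2.68 RPKM in N17 against 0.417 and 1.15 RPKM in P32 and P42. Without Rgs5, the pericyte sum of N17 is below both positive ones as well. The contractile sum was 5.08 and 3.40 times the pericyte sum in the positive libraries (3.97 and 4.68 with the other assignment), against 1.65 and 1.08 times in the negative ones. The contractile sums rest mainly on Acta2, Tagln and Myl9. When each gene counted equally, as the mean of log2(RPKM + 0.1), contractile exceeded pericyte genes by 1.35 and 0.35 in the positive libraries (0.96 and 0.73 with the other assignment). They exceeded them by 0.06 and 0.42 in the negative libraries, so the groups overlapped under the first assignment and not under the other.

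Other genes of mural cells were also mixed, but did not repeat the gap between the contractile and pericyte medians. Of 22 further smooth muscle genes 7 were higher in positive cells by the ratio of levels and 13 by the log difference, with medians of -0.32 and 0.03. Of 22 further pericyte genes 9 were higher by the ratio and 18 by the log difference, with medians of -0.33 and 0.57. By the ratio these medians were thus nearly equal, and by the log difference the pericyte one was higher. The shares higher were 31.8% and 59.1% for smooth muscle and 40.9% and 81.8% for pericyte genes, against 35.9% and 51.0% of the 17200. In each list 0 passed in the authors' deposited table, and 1 in each list had an unadjusted p under 0.05 there, Tpm2 and Ndufa4l2. Of the 14 with at least 1 RPKM in either group, Ndufa4l2, a mitochondrial protein of pericytes, had the highest ratio. It was at 35.7 and 9.55 RPKM in P32 and P42, against 8.49 and 0 RPKM in N17 and N74, and its log2 ratio in the authors' deposited table was 1.42. Ppp1r14a, an inhibitor of myosin phosphatase, had 0.481 RPKM in P32 and 1.67 in P42, against 0.341 in N17 and 0 in N74, and a log2 ratio of 1.15. Smtn, which encodes the actin-binding smoothelin, followed at 0.69, with 2.52 to 6.33 RPKM in positive and 0.168 to 9.59 RPKM in negative cells over both assignments.

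At the other end of these 14 genes, Heyl, a Notch target of mural cells, was at 0.897 and 0.0118 RPKM in P32 and P42. In N17 and N74 it was at 2.05 and 0.444 RPKM, and its log2 ratio was -1.98. Rgs4, a relative of Rgs5, had 1.68 RPKM in P32 and 2.68 in P42, against 3.74 in N17 and 0.0416 in N74, with a log2 ratio of -0.90. Like Rgs5, it was highest in N17 and lowest in N74. Cnn2, a calponin that is not restricted to muscle, had a log2 ratio of -0.68 and lay between 21.5 and 36.5 RPKM in positive and between 30.0 and 52.4 RPKM in negative cells. None of these 6 genes passed in the authors' deposited table.

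Markers of several other cells were also lowest in N74. Of 12 endothelial genes, 11 had resolved values, which summed to 19.3 and 39.2 RPKM in P32 and P42 and to 23.0 and 1.28 RPKM in N17 and N74. Cldn5 alone was at 0 reads in N74. Skeletal muscle fibre genes, 5 of 12 resolved, summed to 51.6 and 26.5 RPKM in positive cells and to 56.9 and 1.26 RPKM in negative cells, with Myh1 at 0 reads in N74. Fibroblast and myofibroblast genes, 3 of 8 resolved, summed to 228.7 and 41.8 RPKM in positive cells and to 82.1 and 0.102 RPKM in negative cells, with Cthrc1 at 0 reads in N74. Leukocyte genes, 2 of 8 resolved, were highest in N74, with 4.72 and 25.1 RPKM in positive cells and 19.2 and 43.3 RPKM in negative cells, and none of the 8 was at 0 reads in any library. Platelets also make much Myl9. Of 8 platelet genes, 7 were resolved and summed to 6.25 and 770.9 RPKM in the positive libraries and to 12.8 and 3.67 RPKM in the negative ones, with Gp6 at 0 reads in 3 libraries and Treml1 in N17. Pf4, the unresolved one, lay between 41.4 and 629.1 RPKM in positive and between 4.19 and 25.7 RPKM in negative cells. P42 had both the highest resolved platelet sum and the highest Myl9. P32 held 483.1 or, under the other assignment, 41.4 RPKM of Pf4, against 25.7 RPKM in N17. The part of these cells in the results above was not tested.

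**Figure D4:**
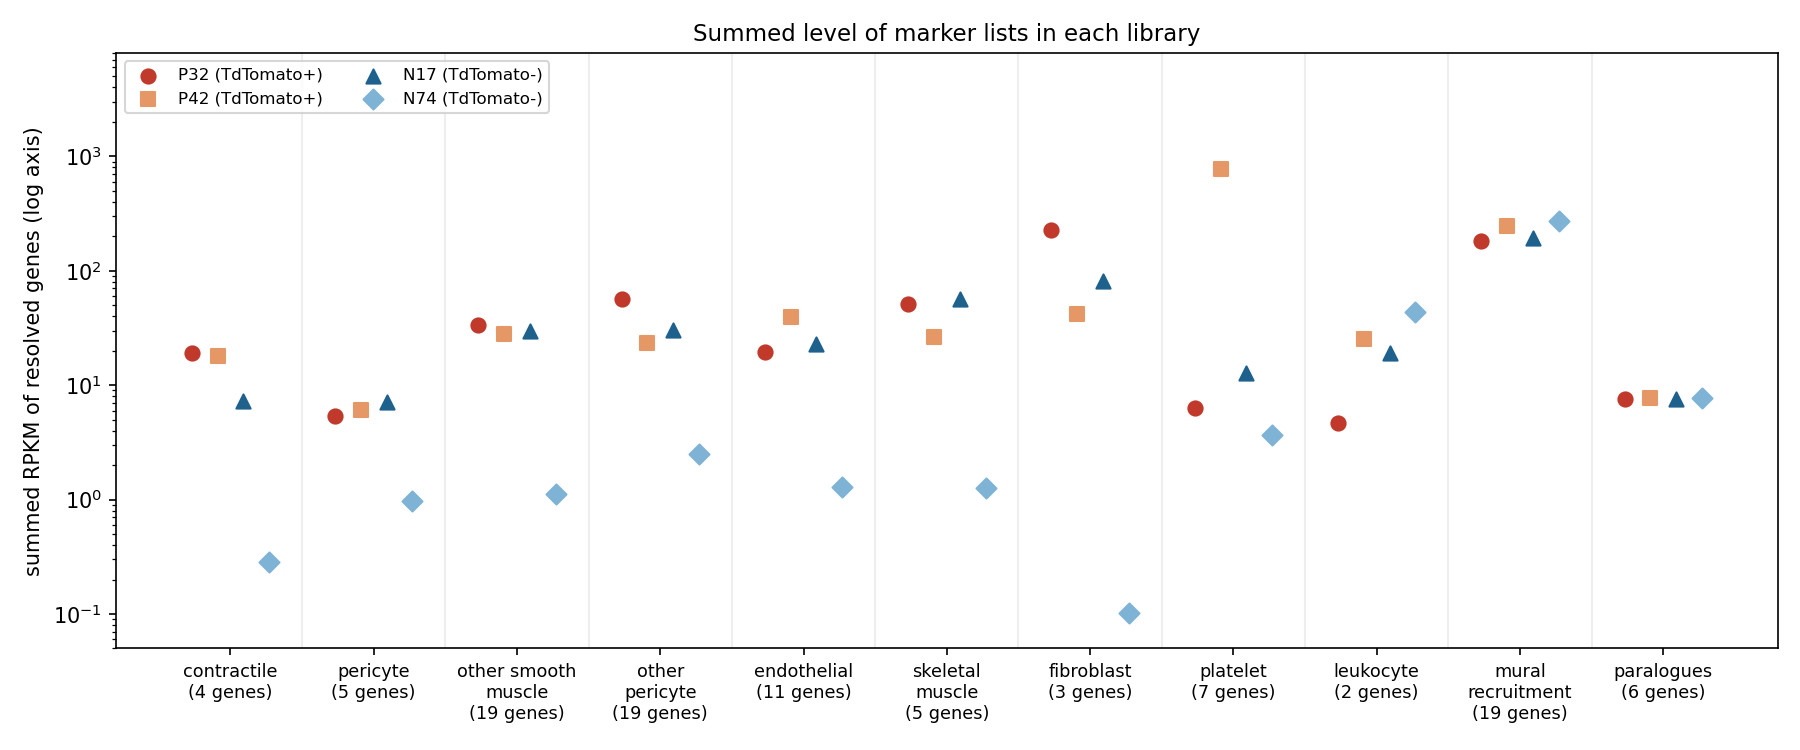
Summed RPKM (log axis) of the genes with resolved library values in each marker list, in the 2 TdTomato-positive and the 2 TdTomato-negative libraries, named by group and depth; Acta2 is unresolved and left out of the contractile sum. N74 is highest for leukocyte genes (43.3 RPKM) and for mural recruitment genes (271.8 RPKM). Of the mural recruitment sums Klf2 alone holds 243.4 of 271.8 RPKM in N74 and 167.0 of 195.0 in N17. In P32 it holds 140.6 of 183.7 RPKM and in P42 218.3 of 248.0. The 6 resolved of 15 paralogues sum to between 7.57 and 7.72 RPKM, and the 9 unresolved ones are left out. Among these 6, N74 holds the highest Myh9 value (5.97 RPKM) and the lowest Rgs4 value (0.0416 RPKM). N74 is lowest in the other lists, among which the platelet sum of P42 reaches 770.9 RPKM.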

How the data were processed

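The data are 1 table of the authors' comparison of TdTomato-positive with TdTomato-negative cells, with 29 columns. STAR and Partek were used with mm10, per the submitters' processing notes, which give no versions. Per the file headers, the deposited table holds group means of a signal, its sum and highest value over libraries, a natural log difference, the ratio of the means, a signed fold as a score, an Akaike criterion as a score, and p-values with their FDR, from a model the headers call lognormal with shrinkage.

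The group means, highest value and log difference fix 4 values per gene, and each of the 47643 genes had 1 solution. They equal RPKM plus 0.1, divided by depth and span again, a scale inferred from the values. The table's Akaike criterion, not used in the solution, varied from -88.7 to 73.3 and stayed between 24.5 and 25.8 once 2 times the summed log values was taken off. Values went to the library that gave whole reads (within 0.01, at most 0.05) and no negative ones, or, where 1 value alone was whole, within 0.002. This resolved 71.0% of 17200 genes. For the others limma took the assignment whose libraries differ less. Limma 3.58.1 (R 4.3.3) and the recovery of library values were tested on simulated data. Implied depths were 17.0 to 74.0 M reads, of which 66.0% to 85.3% fell in listed genes.

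The main comparison takes levels as the deposited group means times the span, with the authors' deposited p-values and FDR as its test. All members are named, and of further mural genes the 3 highest and 3 lowest by that ratio with at least 1 RPKM in either group. Tpm2 and Ndufa4l2 are also named for an unadjusted p, after their values were seen. Members and lists were chosen with earlier results of these data known. Alternatives were other offsets, arithmetic means, size factors, leaving out libraries, limma and replicate blocks, and, added after seeing the data, the log difference and the other assignment of Acta2.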

Additional observations from a re-analysis of the deposited data

How the results depend on the processing

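The 2 positive and 2 negative libraries limit every statement here, and depth limits Cnn1, Abcc9 and Myh11, which had at most 338 reads in any library. The median log2 fold of contractile genes was 0.19 as reported, 1.93 on log2(RPKM + 0.01) and 1.70 as a ratio of mean RPKM, with either assignment of Acta2. That of pericyte genes was -0.53 as reported and 1.61 on log2(RPKM + 0.01). On RPKM plus the offset, leaving out 1 library at a time gave 0.46 to 2.63 for contractile genes, -0.30 to 3.01 for pericyte genes and -0.37 to 1.88 for their difference. Leaving out N17 gave 2.63, 3.01 and -0.37. The difference of medians was positive in 9 of 11 alternatives, the contractile median in 11 and the pericyte median, negative as reported, in 9. The ratio of mean RPKM counts as 2 of these alternatives, 1 for each assignment of Acta2, although both gave the same medians. Of 101 single folds recomputed, 62 moved by less than 1 SD between libraries of the same gene. This count does not measure stability, because a gene with a wide spread meets it easily. Rgs5, with an SD of 2.42, counted as unmoved between -1.84 as reported and 0.50 by the log difference. Mcam and Kcnj8 had the other sign in 8 of 10 alternatives each, Rgs5 in 3 and Abcc9 in 1, and the remaining members in 0. The cause was not tested. Limma called 0 members in each of its settings, those without 1 library included, where the lone library of a group is assumed to vary like the others. Collection numbers are in the labels but not in the values, so the replicate block was fitted under both possible pairings on 3688 resolved genes. With P32 paired with N17, the block called 46 genes, with the other pairing 0, and 0 members in either. The lowest adjusted p of a member in limma was 0.0779 (Tagln) and 0.947 under these pairings, and ran from 0.353 to 0.993 over the other settings.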

Other observations

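Of 20 genes that recruit and steer mural cells, 7 were higher in positive cells by the ratio of levels and 12 by the log difference, and 0 had an FDR or an unadjusted p under 0.05 in the authors' deposited table. Pdgfb, the endothelial ligand that draws pericytes to vessels, was at 0.268 and 0.767 RPKM in P32 and P42, against 0.417 and 0.0657 RPKM in N17 and N74. Srf, the serum response factor, had 2.88 RPKM in P32 and 2.60 in P42, against 1.92 in N17 and 3.83 in N74, so the groups overlapped for both genes.

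Of 15 paralogues of the members, most of them not restricted to muscle or mural cells (Cnn2 and Rgs4 among them), 6 were higher by the ratio and 7 by the log difference, and 0 had an unadjusted p under 0.05. Myh9, a non-muscle myosin heavy chain, was at 1.15 and 1.04 RPKM in P32 and P42, against 1.97 and 5.97 RPKM in N17 and N74. Both positive libraries lay below both negative ones, the reverse of Myh11. Kcnj11 and Abcc8, the subunits of the potassium channel of pancreatic beta cells that correspond to Kcnj8 and Abcc9, had 0 reads in both positive libraries and in N17, and 1 and 26 reads in N74.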
